A study of Mus musculus with 6 samples.

Results

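The genes described here are 38 genes of glycolysis and of the response to low oxygen, measured in 2D-MAOs with and without TGF-β1. They were taken as a named list, by matching each gene to the array through its RefSeq accession, with no measured value in the rule, although the list was written with earlier results of these data known. The list holds 21 genes of glucose uptake, glycolysis and lactate export and 17 further genes of the hypoxia response. The arrays reached 22910 genes, of which 14345 were bright enough to be tested, and all 38 were among those tested.

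2D-MAOs are airway epithelial cells of C57BL/6 mouse lung, expanded as organoids and then grown as a flat layer. From day 3 the medium of both groups lacked noggin and A83-01, which block BMP signalling and the TGF-β receptor. The 3 TGF-β1 cultures received TGF-β1, a secreted growth factor, in that medium, the 3 control cultures received none, and all were collected on day 7. The methods name a dose for other TGF-β1 assays on 2D-MAOs but none for the arrays, the labels give no age, and nothing states whether the biological replicates of a group came from different mice. RNA of each culture was hybridised to 1 single-colour Agilent array, and signals are given here as log2 of the quantile-normalised brightness, a scale on which levels can be compared between arrays but not between probes.

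Glycolysis converts glucose to pyruvate in the cytosol, and lactate dehydrogenase turns pyruvate into lactate when little of it enters mitochondria. In low oxygen the subunit HIF1α escapes hydroxylation and degradation, pairs with ARNT and binds DNA at the hypoxia response element. The core of this element was searched for here as ACGTG, and variants of these letters were not counted. Most glycolytic enzymes, the glucose transporter GLUT1 and genes for pH balance, mitophagy and collagen hydroxylation are known targets. HIF1α itself is regulated mainly as a protein, so that its mRNA need not follow its activity.

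All 6 arrays lay on 1 slide, and 55.0% to 59.0% of probes were well above background on each. The replicate 3 arrays of both groups lay in slide row 2 and the other 4 arrays in row 1, so that slide row and culture cannot be told apart within a group. Of the markers checked, the epithelial genes Epcam, Cdh1, Krt8 and Krt18 were well above background on all 6 arrays, as were Aqp5 and Pdpn of type 1 alveolar cells. The goblet cell genes Muc5ac and Muc5b, the type 2 cell genes Sftpc, Sftpa1 and Sftpb, and 4 of 5 endothelial markers were well above background on none, whereas Spdef of goblet cells and Lamp3 of type 2 cells were on all 6. Of 5 leukocyte markers, 3 including Ptprc were well above background on no array. The leukocyte sum was 10.72 to 11.51 in controls and 11.69 to 12.28 with TGF-β1. Most of that sum was Cd68, which differed by 0.90 (limma adjusted p = 0.147), whereas Cd3e differed by -0.24. Of 3 club cell markers, Scgb1a1 gave 10.83, 10.18 and 7.77 in controls and 7.00, 7.57 and 7.42 with TGF-β1 (limma adjusted p = 0.158). Scgb3a2 went the other way, by 1.05 (limma adjusted p = 0.117), and Cyp2f2, the brightest, differed by -0.07. The club sum was 17.33 to 17.39 in controls and 17.25 to 17.32 with TGF-β1. Of 4 ciliated cell markers, Foxj1 rose by 1.47 (limma adjusted p = 0.00239). Dnah5 and Ccdc39 differed by 0.34 and 0.30 and were not called, and Tubb4b, the brightest, differed by -0.19. The ciliated sum was 15.31 to 15.41 in controls and 15.11 to 15.25 with TGF-β1. The part of these markers in the results below was not tested. TGF-β1 replicate 3 stood apart from the other TGF-β1 arrays. The summed signal of 4 basal cell markers was 14.69 to 15.44 on the control arrays, 17.00 and 16.75 on TGF-β1 replicates 1 and 2, and 15.71 on replicate 3. For 7 fibroblast markers, 2 of them well above background on no array, the sum was 9.16 to 9.33 in controls and 11.40, 10.23 and 9.45 in TGF-β1 replicates 1, 2 and 3. The sum of 5 proliferation markers was 10.53 to 11.11 in controls and 11.89, 11.18 and 9.66 in the same order, although one of them, Cdk1, was below the controls on all 3 TGF-β1 arrays. Results are therefore given with and without that array. Fewer cells of a type and less RNA per cell cannot be told apart in such bulk RNA.

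RefSeq promoters on GRCm38.p6 were found for 36 of the 38 genes, all but Ndrg1 and Bnip3l. Within 250 bases before and 50 bases after a start, ACGTG was present on either strand (as CACGT on the other) in 26 of the 36 genes, or 72.2%, compared with 21.8% of all 27025 genes in the table and 28.1% of the genes tested here. Genes can have several such windows. Counted by window, 53.6% of the 56 windows of these genes held ACGTG on either strand, compared with 19.6% of all windows. The glycolysis group held it in 13 of 21 genes and the other hypoxia genes in 13 of 15. Since hypoxia genes were named partly for being HIF targets, this share describes the list. Each of the 6 promoters below is the only window of its gene and shows the 250 bases before the start, read 5′ to 3′ on the strand of the gene, with ACGTG or CACGT in capitals. Ddit4 is shown as the only gene with a called change, Pgk1 as a glycolytic enzyme with a lower signal, Pfkp as one of the largest differences without a match, Ankrd37 as the largest difference, and Slc16a3 and Egln3 as 2 of the 3 genes with the largest SD within groups (the other, Ak4, has several windows).
Ddit4: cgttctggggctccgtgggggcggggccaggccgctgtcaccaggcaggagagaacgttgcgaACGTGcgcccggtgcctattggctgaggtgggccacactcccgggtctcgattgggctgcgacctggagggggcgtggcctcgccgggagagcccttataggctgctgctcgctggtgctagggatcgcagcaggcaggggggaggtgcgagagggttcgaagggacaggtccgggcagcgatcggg
Pgk1: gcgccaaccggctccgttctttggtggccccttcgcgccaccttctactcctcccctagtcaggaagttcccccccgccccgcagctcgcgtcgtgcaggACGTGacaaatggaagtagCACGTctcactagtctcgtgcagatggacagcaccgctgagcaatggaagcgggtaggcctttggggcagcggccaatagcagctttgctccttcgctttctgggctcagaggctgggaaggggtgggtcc
Pfkp: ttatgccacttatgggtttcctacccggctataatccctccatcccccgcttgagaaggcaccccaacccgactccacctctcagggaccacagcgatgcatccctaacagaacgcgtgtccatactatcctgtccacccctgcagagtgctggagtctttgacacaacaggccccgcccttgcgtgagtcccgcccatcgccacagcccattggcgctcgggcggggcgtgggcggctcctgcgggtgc
Ankrd37: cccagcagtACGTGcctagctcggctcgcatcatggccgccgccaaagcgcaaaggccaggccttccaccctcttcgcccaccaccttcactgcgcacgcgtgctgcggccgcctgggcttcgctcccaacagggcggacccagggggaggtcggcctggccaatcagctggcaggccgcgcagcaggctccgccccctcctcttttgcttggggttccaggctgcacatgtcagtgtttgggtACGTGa
Slc16a3: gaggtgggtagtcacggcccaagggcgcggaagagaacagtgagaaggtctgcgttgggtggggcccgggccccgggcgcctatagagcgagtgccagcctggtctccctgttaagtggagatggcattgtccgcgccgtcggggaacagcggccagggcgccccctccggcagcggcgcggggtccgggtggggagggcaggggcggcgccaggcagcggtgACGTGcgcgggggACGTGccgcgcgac
Egln3: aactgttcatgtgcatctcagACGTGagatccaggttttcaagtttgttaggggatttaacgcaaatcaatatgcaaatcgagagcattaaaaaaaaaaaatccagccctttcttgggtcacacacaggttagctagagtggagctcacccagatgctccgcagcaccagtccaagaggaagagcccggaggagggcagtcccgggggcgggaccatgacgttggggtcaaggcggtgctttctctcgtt

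The Ddit4 window lay at chr10:59951771-59952020 on the minus strand, with 1 match that began 187 bases before the start. That of Pgk1 lay at chrX:106186850-106187099 on the plus strand, with matches 150 and 131 bases before it. The Pfkp window lay at chr13:6648772-6649021 on the minus strand. Ankrd37 had matches 241 and 6 bases before its start, in the window chr8:45999851-46000100 on the minus strand. Slc16a3 had 2 matches close to its start, 27 and 14 bases before it, in chr11:120948817-120949066 on the plus strand. In Egln3 the match lay 229 bases before the start, in chr12:54203875-54204124 on the minus strand. A match in these letters is not a measured binding site, and binding was not measured here.

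Across the whole list, 1 gene rose with TGF-β1 and none fell at an adjusted p under 0.05 (limma, Benjamini-Hochberg over all genes tested). Of all genes tested, 1.63% rose and 0.404% fell by the same rule, or 2.04% in both directions together. Without adjustment, 4 of the 38 were lower and 1 was higher at p under 0.05, beside 10.7% of all genes lower and 11.4% higher. None of the 38 differed by 2-fold or more, compared with 3.81% of all genes, and 1.38% of all genes did so and passed the adjusted threshold. By their means, 24 were lower and 14 higher with TGF-β1, and 54.2% of all genes tested were lower. The groups did not overlap for 2 genes that were higher, Ddit4 and Pfkm, and for 4 that were lower, Aldoa, Gapdh, Eno1 and Gpi1, compared with 12.9% and 13.5% of all genes. For a single gene with 3 arrays against 3, the exact two-sided permutation test cannot give a p below 0.1.

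The glycolysis genes had a median log2 difference of -0.29, TGF-β1 minus control, with a range of -0.60 to 0.31, and the median over all genes tested was -0.03. Of the 21, 15 were lower and 6 higher by their means, and none passed the adjusted threshold. The size of the median depended on the scaling. It was -0.48 with scaling to the 75th percentile and -0.49 with scaling to the median of detected probes. Over all genes the medians were then -0.09 and -0.11. 

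**Figure D1:**
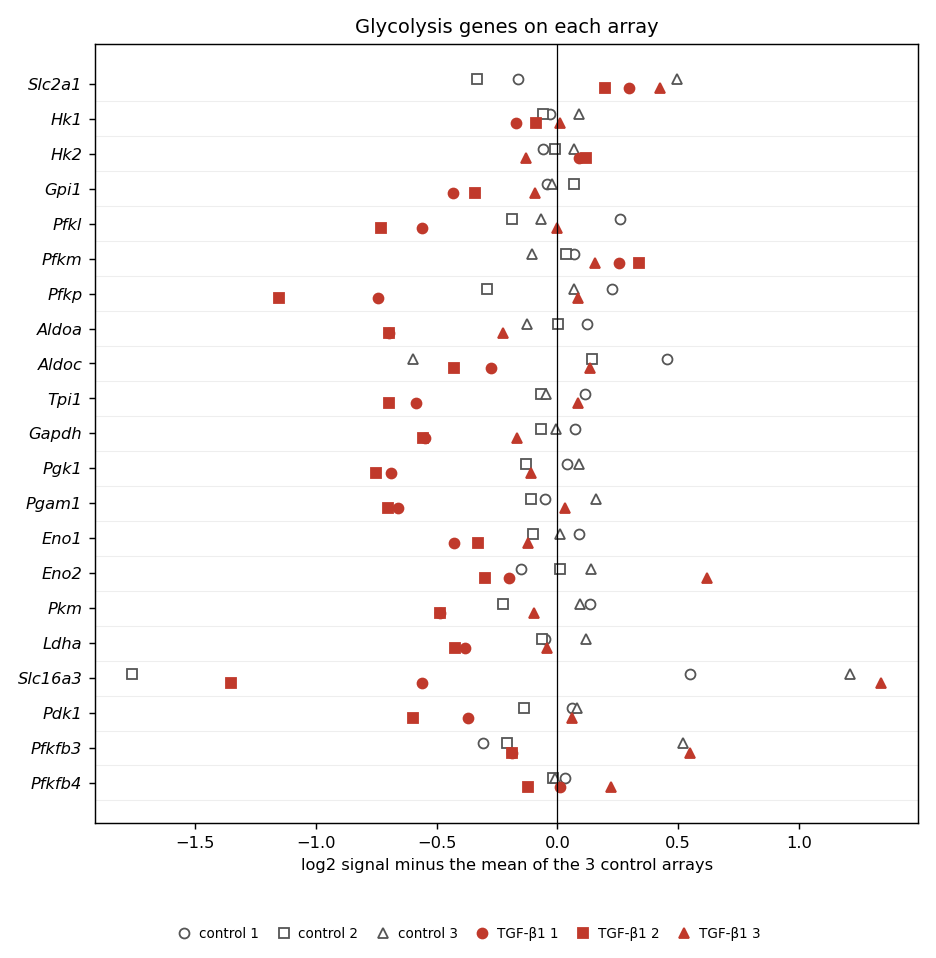
Log2 signal of the 21 glycolysis genes on each of the 6 arrays, as the difference from the mean of the 3 control arrays (x axis, log2). Open grey symbols are controls, filled red symbols are TGF-β1 arrays, and circles, squares and triangles are replicates 1, 2 and 3. For Pgk1, Pgam1 and Tpi1, the TGF-β1 circle and square lie to the left of every control and the triangle lies near the controls.

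At the entry of the pathway, Slc2a1, which encodes the glucose transporter GLUT1, gave 13.47, 13.30 and 14.13 in the controls and 13.93, 13.83 and 14.06 with TGF-β1, a difference of 0.31 (SE 0.22, limma adjusted p = 0.427). The groups overlapped. Within slide row 1 alone its difference was 0.50, with a limma adjusted p of 0.0374, in a comparison of 4 arrays that called 13.8% of all genes higher, whereas it was -0.07 between the 2 arrays of row 2. Hk1 and Hk2, the hexokinases that trap glucose in the cell, differed by -0.08 and 0.03. A dimmer Hk1 probe gave -0.56. Gpi1, encoding glucose-6-phosphate isomerase, gave 15.26, 15.37 and 15.28 in the controls and 14.87, 14.96 and 15.21 with TGF-β1. Every TGF-β1 array was below every control, by a mean of -0.29 (SE 0.12, limma adjusted p = 0.228).

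The 3 phosphofructokinase genes, which encode the subunits of the committed step, differed in sign by their means. Pfkl, the liver-type subunit, gave 12.26, 11.81 and 11.93 in the controls and 11.44, 11.27 and 12.00 with TGF-β1 (difference -0.43, SE 0.22, limma adjusted p = 0.285). Pfkp, the platelet-type subunit, gave 12.62, 12.10 and 12.46 in the controls and 11.65, 11.24 and 12.48 with TGF-β1 (difference -0.60, SE 0.32, limma adjusted p = 0.300). For both, TGF-β1 replicates 1 and 2 were below every control and replicate 3 was within the controls. Pfkm, the muscle-type subunit, was higher on every TGF-β1 array, at 11.12, 11.20 and 11.02 compared with 10.93, 10.90 and 10.76 (difference 0.25, SE 0.11, limma adjusted p = 0.232). The differences of Pfkm and Pfkp were 0.86 apart, and those of Pfkm and Pfkl were 0.68 apart, with an exact two-sided permutation p of 0.2 for each (n = 3 per group), a comparison chosen after the values were seen.

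Aldoa, the gene of aldolase A, which splits fructose bisphosphate, gave 17.58, 17.46 and 17.33 in the controls and 16.76, 16.76 and 17.23 with TGF-β1. Every TGF-β1 array was below every control, and the difference was -0.54 (SE 0.16, limma adjusted p = 0.142). Aldoc, the brain-type aldolase, differed by -0.19 with overlapping groups. Tpi1, encoding triosephosphate isomerase, gave 14.82, 14.64 and 14.66 in the controls and 14.12, 14.01 and 14.79 with TGF-β1 (difference -0.40, SE 0.21, limma adjusted p = 0.306). TGF-β1 replicate 3 was within the controls, and the other TGF-β1 arrays were below all of them.

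Gapdh, encoding the dehydrogenase that makes the first NADH of the pathway and widely used as a reference gene, gave 16.18, 16.04 and 16.10 in the controls and 15.56, 15.55 and 15.94 with TGF-β1. The groups did not overlap, and the difference was -0.42 (SE 0.14, limma adjusted p = 0.161). Its 6 probes differed by -0.71 to -0.41. Pgk1, the first enzyme of the pathway to make ATP, gave 16.54, 16.37 and 16.59 in the controls and 15.81, 15.75 and 16.39 with TGF-β1 (difference -0.52, SE 0.19, limma adjusted p = 0.184). Here the highest TGF-β1 array, replicate 3, was just above the lowest control. Pgam1, a phosphoglycerate mutase, gave 15.23, 15.17 and 15.44 in the controls and 14.62, 14.58 and 15.31 with TGF-β1 (difference -0.44, SE 0.21, limma adjusted p = 0.273), with the same array inside the control range.

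Eno1, the ubiquitous enolase, gave 16.30, 16.11 and 16.22 in the controls and 15.78, 15.88 and 16.09 with TGF-β1. All TGF-β1 arrays were below all controls (difference -0.30, SE 0.12, limma adjusted p = 0.220). Eno2, the neuronal enolase, differed by 0.04. The differences of both enolases were 0.34 apart (exact two-sided permutation p = 0.3, n = 3 per group). Pkm, encoding pyruvate kinase, differed by -0.36 and Ldha, encoding lactate dehydrogenase A, by -0.29. Second, dimmer probes of Eno1, Pkm and Ldha gave -0.82, -0.77 and -0.83. Several of these enzymes have processed copies elsewhere in the genome, and how far a probe also bound such copies was not tested.

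Slc16a3, encoding the lactate exporter MCT4, varied more between cultures than between groups. It gave 10.85, 8.54 and 11.51 in the controls and 9.74, 8.95 and 11.64 with TGF-β1 (difference -0.19, SE 0.93). Replicate 2 was lowest and replicate 3 highest in both groups. Its SD within groups was 1.47, larger than that of 99.9% of genes tested, whose median was 0.18. Of the regulators, Pdk1, a kinase that keeps pyruvate out of mitochondria, differed by -0.30. Pfkfb3 and Pfkfb4, which make and remove the activator of phosphofructokinase, differed by 0.05 and 0.04. A dimmer Pfkfb3 probe gave -0.41.

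The 17 other hypoxia response genes had a median difference of -0.03, with a range of -0.91 to 0.73. By their means 8 were higher and 9 lower. Only Ddit4 passed the adjusted threshold among them in the comparison of all 6 arrays.

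**Figure D2:**
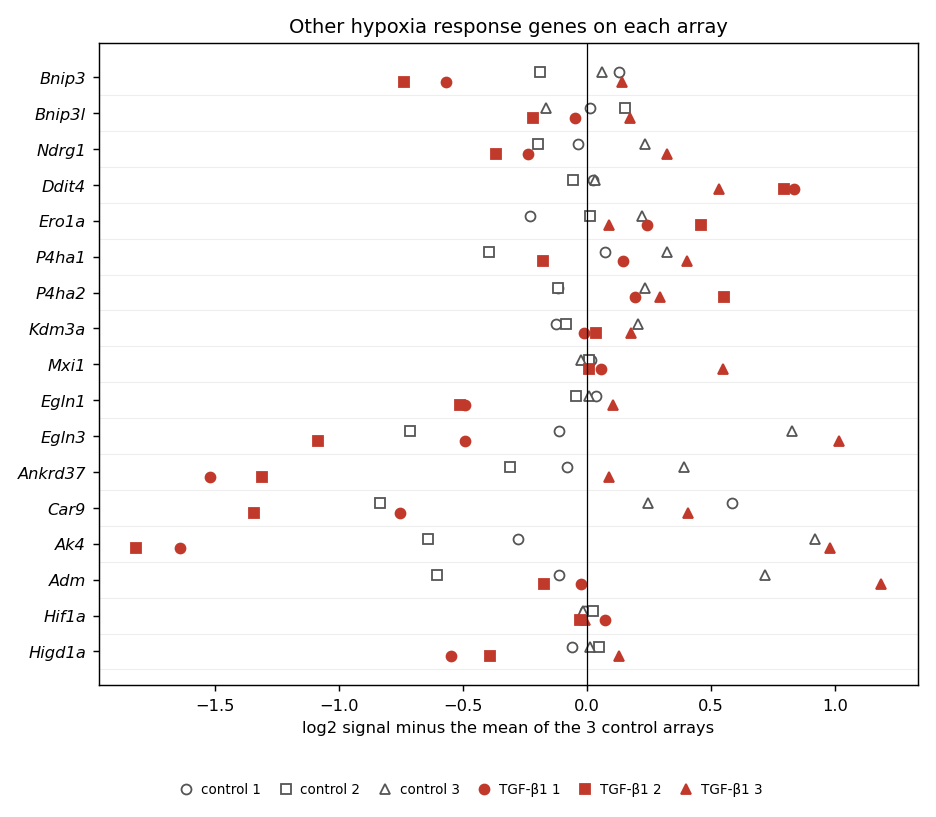
Log2 signal of the 17 other hypoxia response genes on each of the 6 arrays, as the difference from the mean of the 3 control arrays (x axis, log2), with symbols as in the plot of the glycolysis genes. Ddit4 lies to the right of the controls on all 3 TGF-β1 arrays, and Ak4, Egln3, Car9 and Ankrd37 are spread widely within both groups.

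Ddit4, which encodes the mTORC1 inhibitor REDD1 and responds to hypoxia, glucocorticoids and other stresses, gave 14.51, 14.43 and 14.52 in the controls and 15.32, 15.28 and 15.02 with TGF-β1. It was higher on all 3 TGF-β1 arrays than on any control. The difference was 0.73, or 1.65-fold (SE 0.12, limma adjusted p = 0.0377, exact permutation p = 0.1). The call rested on all of the arrays but 1. Without TGF-β1 replicate 3 the adjusted p was 0.00941, and without any other single array it was lost, at up to 0.165, while the difference stayed between 0.68 and 0.82. It was also lost under scaling to the 75th percentile (difference 0.47, limma adjusted p = 0.0814) or to the median of detected probes (0.46, 0.0898), and with no detection filter (limma adjusted p = 0.0741).

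Hif1a, the regulated subunit of the hypoxia factor, had the smallest SD within groups of the 38 genes. It gave 12.94, 12.97 and 12.93 in the controls and 13.02, 12.92 and 12.94 with TGF-β1, a difference of 0.02 (SE 0.10). Egln1, encoding the prolyl hydroxylase PHD2 that marks HIF1α for degradation, gave 12.69, 12.61 and 12.66 in the controls and 12.16, 12.14 and 12.76 with TGF-β1 (difference -0.30, SE 0.18, limma adjusted p = 0.352). Replicates 1 and 2 of the TGF-β1 group were below all controls, and replicate 3 was above them. Egln3, the prolyl hydroxylase PHD3, gave 10.36, 9.76 and 11.30 in the controls and 9.98, 9.39 and 11.49 with TGF-β1, with no separation of the groups (difference -0.19, SE 0.60).

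Among genes of mitochondrial turnover and function, Bnip3, a mitophagy receptor, gave 14.16, 13.84 and 14.09 in the controls and 13.46, 13.29 and 14.17 with TGF-β1 (difference -0.39, SE 0.24, limma adjusted p = 0.359). Its relative Bnip3l differed by -0.03. Higd1a, encoding a mitochondrial inner membrane protein, gave 14.20, 14.31 and 14.27 in the controls and 13.71, 13.87 and 14.39 with TGF-β1 (difference -0.27, SE 0.18, limma adjusted p = 0.402). In Bnip3 and Higd1a alike, TGF-β1 replicate 3 was the highest array of all 6.

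P4ha2 and P4ha1 of collagen hydroxylation and Ero1a of protein folding were higher by their means, and none was called. With scaling to the 75th percentile the differences were 0.12, 0.06 and 0.03. Between the 2 arrays of slide row 2 they were 0.06, 0.08 and -0.14. P4ha2, a subunit of collagen prolyl 4-hydroxylase, gave 14.17, 14.17 and 14.52 in the controls and 14.48, 14.84 and 14.58 with TGF-β1 (difference 0.35, SE 0.15, limma adjusted p = 0.235). The lowest TGF-β1 array was below the highest control. P4ha1, the other such subunit, and Ero1a, an endoplasmic reticulum oxidase, differed by 0.12 and 0.26. A dimmer P4ha1 probe gave -0.24. The histone demethylase gene Kdm3a differed by 0.06, Mxi1, a MYC antagonist, by 0.20, and Ndrg1, a stress-response gene, by -0.09.

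Ankrd37, encoding an ankyrin repeat protein, had the largest difference in size. It gave 9.42, 9.19 and 9.89 in the controls and 7.98, 8.19 and 9.59 with TGF-β1 (difference -0.91, SE 0.43, limma adjusted p = 0.263). TGF-β1 replicates 1 and 2 were below all controls and replicate 3 was among them. Ak4, a mitochondrial adenylate kinase, gave 10.46, 10.10 and 11.66 in the controls and 9.10, 8.92 and 11.72 with TGF-β1 (difference -0.83, SE 0.79, limma adjusted p = 0.548). Car9, the pH-regulating carbonic anhydrase 9, gave 10.88, 9.46 and 10.54 in the controls and 9.54, 8.95 and 10.70 with TGF-β1 (difference -0.56, SE 0.52, limma adjusted p = 0.534). Both overlapped between the groups. Adm, which encodes the secreted peptide adrenomedullin, differed by 0.33 (SE 0.45).

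The SD of these genes within groups was 1.25 for Ak4, 0.94 for Egln3, 0.82 for Car9, 0.70 for Adm and 0.67 for Ankrd37, against a median of 0.18 over all genes tested. After these values had been seen, the order of the arrays was counted. Replicate 3 was the highest array in both groups for 16 of the 38 genes, or 42.1%, compared with 15.5% of all genes. Replicate 2 was the lowest in both groups for 19 of them, or 50%, compared with 13.4% of all genes, and it shared slide row 1 with replicate 1. Nothing in the labels ties arrays of the same number together. Since replicate 3 of each group was the only one in slide row 2, its culture and slide row cannot be told apart.

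**Figure D3:**
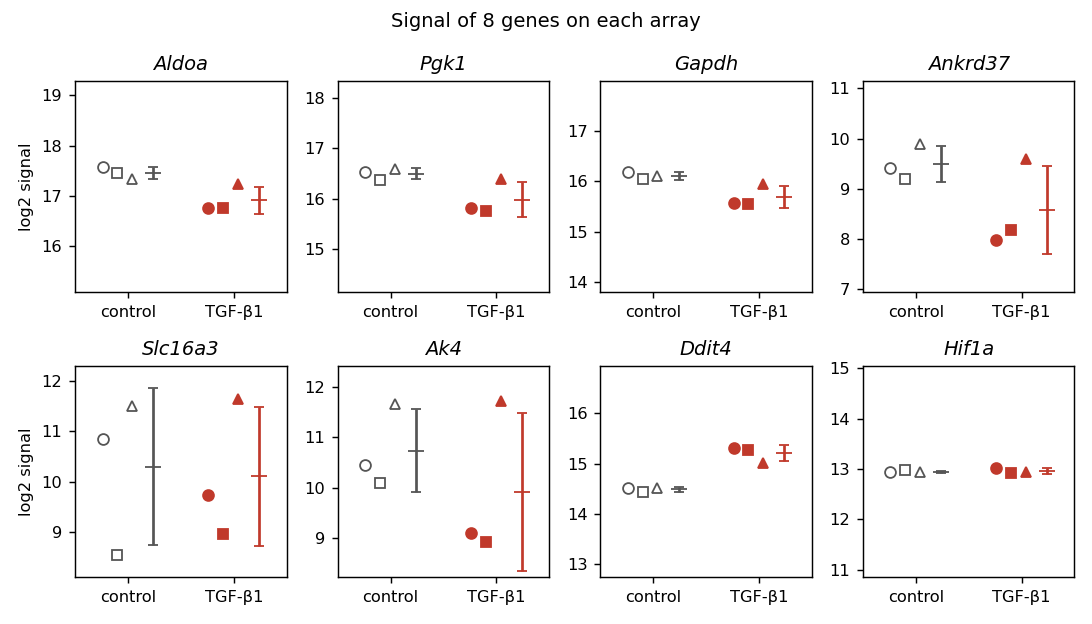
Log2 signal (y axis, each panel spanning the same number of log2 units) of 8 genes in the 3 control (open grey) and 3 TGF-β1 (filled red) cultures, with circles, squares and triangles for replicates 1, 2 and 3 and with the mean and SD beside them. Ddit4 is higher on every TGF-β1 array, Hif1a is level, and in Slc16a3 and Ak4 the spread within a group exceeds the difference between the groups.

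The 3 TGF-β1 arrays differed from each other. On replicates 1 and 2 the median glycolysis gene lay -0.43 and -0.43 from the control mean, and on replicate 3 it lay 0.03 from it. On replicates 1 and 2, 14 and 15 of the 21 genes were below all 3 controls, or 66.7% and 71.4%, compared with 37.7% and 38.1% of all genes. On replicate 3 the share was 23.8%, beside 24.7% of all genes. The 2116 genes at or above 13.25, the median level of the 21 glycolysis genes, had medians of 0.03, 0.02 and 0.03 on the same arrays. For the other hypoxia genes the medians were -0.05, -0.22 and 0.30. On TGF-β1 replicate 3, 12 of these 17 genes were above all 3 controls, or 70.6%, and none was below, compared with 26.0% of all genes above. Within slide row 1 the median differences of the glycolysis and other hypoxia genes were -0.40 and -0.19, and between the 2 arrays of row 2 they were -0.07 and 0.09. The basal and proliferation marker sums of TGF-β1 replicate 3 were below those of the other TGF-β1 arrays, and their part in this was not tested.

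Without TGF-β1 replicate 3, 11 of the 38 genes fell and Ddit4 rose at an adjusted p under 0.05, beside 6.29% of all genes that fell and 9.09% that rose. The 7 glycolysis genes that fell were Pfkp (-0.95, limma adjusted p = 0.0342), Pgk1 (-0.72, 0.0185), Aldoa (-0.69, 0.0207), Pgam1 (-0.68, 0.0233), Pfkl (-0.65, 0.0491), Tpi1 (-0.64, 0.0224) and Gapdh (-0.55, 0.0264). The 4 other hypoxia genes were Ankrd37 (-1.41, 0.0160), Bnip3 (-0.65, 0.0338), Egln1 (-0.50, 0.0291) and Higd1a (-0.47, 0.0415). Ak4 differed by -1.72 and missed the threshold at 0.0516. The group medians became -0.40 and -0.14, with -0.04 over all genes. None of these falls was called in the unweighted comparison of all 6 arrays or when any other array was left out. With array weights, a fit of all 6 arrays that gave TGF-β1 replicate 3 the lowest weight (0.30), all 11 were called lower, beside 17.9% of all genes.

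**Figure D4:**
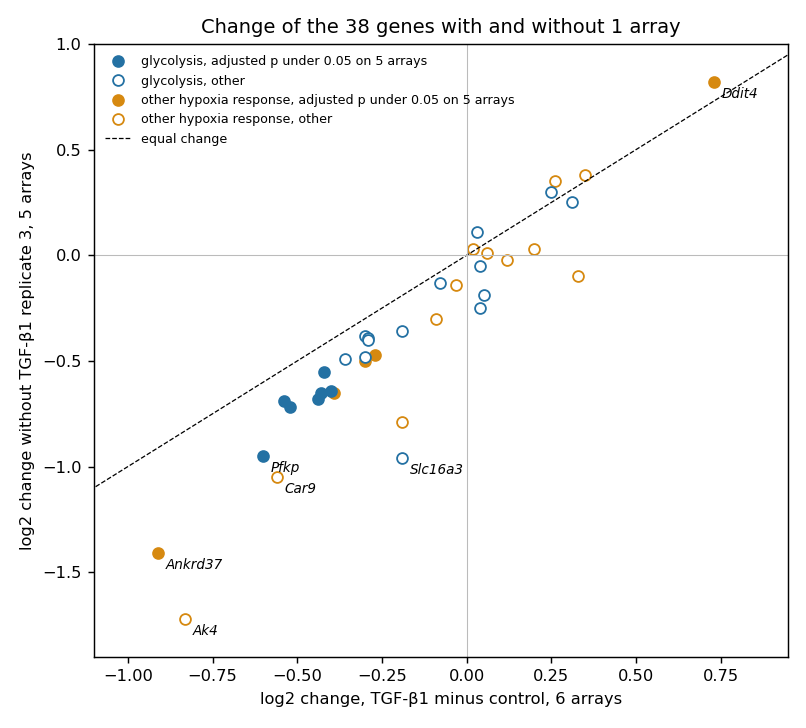
Log2 difference, TGF-β1 minus control, of the 38 genes over all 6 arrays (x axis) and over 5 arrays without TGF-β1 replicate 3 (y axis). Blue points are glycolysis genes, orange points are other hypoxia response genes, and filled points passed an adjusted p under 0.05 on 5 arrays. The glycolysis points called on 5 arrays lie below the dashed line of equal change, and Ddit4 lies above it at 0.73 and 0.82.

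Further genes of the same pathways were taken from lists written from general knowledge. Of 46 further glycolysis and glucose metabolism genes, 37 were tested and none was called in either direction at an adjusted p under 0.05 (limma). At an unadjusted p under 0.05, 6 were higher and 8 lower, beside 11.4% and 10.7% of all genes. Their median difference was -0.19. Txnip, an inhibitor of glucose uptake, gave 10.57, 10.81 and 9.73 in the controls and 12.35, 12.37 and 10.99 with TGF-β1, a difference of 1.53 (SE 0.44, limma adjusted p = 0.132). Slc2a4, the insulin-regulated glucose transporter GLUT4, differed by 1.48 (SE 0.36, limma adjusted p = 0.0987) and Pdk4, a relative of Pdk1, by 0.92 (SE 0.22, limma adjusted p = 0.0950). For these 3 genes every TGF-β1 array was above every control. Slc2a3, the glucose transporter GLUT3, differed by -0.83 (SE 0.76).

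Of 50 further hypoxia response genes, 46 were tested, 2 rose and none fell, beside 1.63% and 0.404% of all genes, and their median difference was -0.03. Lox, encoding a collagen cross-linking enzyme, gave 8.85, 8.61 and 9.64 in the controls and 12.59, 12.29 and 11.61 with TGF-β1 (difference 3.13, SE 0.34, limma adjusted p = 0.0112). Cxcr4, a chemokine receptor gene, stood clear of background in the 3 TGF-β1 cultures and in no control. It thus passed the detection filter only through the arrays where it was high, and the filter favoured its call. The other call, Lox, was well above background on all 6 arrays. The mean of Cxcr4 with TGF-β1 was 6.63. Probes on the control arrays became well above background at levels of 3.62 to 4.19, and control replicate 1 read 4.28. The difference of 6.06-fold computed from those levels is therefore approximate. Vegfa, a classical HIF target encoding a growth factor for vessels, named here after its values were seen, gave 14.60, 13.89 and 14.93 in the controls and 14.55, 14.01 and 14.95 with TGF-β1. Its order over the replicates was that of Slc16a3, and the difference between the groups was 0.03 (SE 0.33).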

How the data were processed

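The authors deposited, for each array, the intensity of every spot on a linear scale, background-subtracted by Agilent Feature Extraction 11.0.1.1 and not normalised between arrays. Control spots and spots marked as uneven or outlying were removed, leaving 56599 of 56605 probes. RefSeq accessions were matched to symbols on GRCm38.p6 (32991 of 35883 matched). Log2 signals were normalised by quantiles, as the study's methods state. A probe had to be well above background on 3 or more of 6 arrays, and the brightest probe stood for a gene. Groups were compared with limma 3.58.1 in R 4.3.3, with Benjamini-Hochberg adjustment over 14345 genes and a threshold of 0.05. The procedure was tested on simulated data. The number of arrays limits precision.

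The members and lists were chosen with earlier results of these data known. Values on every array are given for members called with all arrays or with 1 left out and for the 6 largest differences in each of the 2 groups, and of further lists called genes are named, otherwise the 4 largest. Array values of Slc2a1, Gpi1, Pfkm, Eno1, Slc16a3, Hif1a and Egln3 were added after they had been seen, and the other members are given as differences. For a gene well above background on no array of a group, only an approximate fold computed from the detection level is given. The background alternative (normexp, offset 50) was planned on the mean brightness and used the median, since a mean brightness was not used here. The other alternatives were scaling to the 75th percentile or to the median of detected probes, other detection filters, the mean of a gene's probes, a trended prior, array weights, replicate and slide row as blocks, slide rows apart, each array left out and the methods' t-test.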

Additional observations from a re-analysis of the deposited data

How the results depend on the processing

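Leaving out 1 array in turn gave 0 to 1 members higher and 0 to 11 lower, 0 to 7 of them glycolysis and 0 to 4 other hypoxia genes. All genes called ranged from 48 to 1304 higher and from 7 to 902 lower, members without overlap from 2 to 7 higher and from 4 to 20 lower (22.2% of all genes were higher for the 7, without control replicate 3, and 30.1% lower for the 20), the glycolysis median from -0.40 to -0.21 and the other hypoxia median from -0.14 to 0.06. Each upper count of lower genes, and the 1304, came without TGF-β1 replicate 3. Array weights gave 2 members higher and 16 lower (12 glycolysis, 4 other hypoxia), with 2408 and 2574 of all genes. Within slide row 1, 2 members were higher and 12 lower (7 and 5), with 1983 and 1852 of all genes, and 8 and 22 members did not overlap, as did 32.0% and 38.9% of all genes. Within row 2, with 1 array a group and no test, the glycolysis median was -0.07. There 13 of the 24 lower members were higher and 4 of the 14 higher ones lower. Of the members named by rule, Ak4 (0.06), Bnip3 (0.08), Car9 (0.17), Egln1 (0.10), Higd1a (0.12), Pfkl (0.06), Pfkp (0.01) and Tpi1 (0.13) turned to the higher side. The cause of these shifts was not tested.

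Scaling to the 75th percentile or to the median of detected probes left 0 members higher, with 9 and 10 members lower without overlap, beside 17.2% and 18.8% of all genes. The glycolysis medians were -0.48 and -0.49 and those of the other hypoxia genes -0.22 and -0.24, relative to -0.09 and -0.11 over all genes. Using the mean of a gene's probes, 7 members were lower without overlap (16.8% of all genes). With no detection filter 0 members were higher, and 59 and 15 of all genes were called. A trended, robust prior called 399 and 108 genes, and slide row as a block called 105 lower. Without adjustment limma gave 4 members lower, all glycolysis genes, and 1641 and 1542 of all genes. The methods' t-test gave 2 members higher and 3 lower, all 3 glycolysis genes, with 1304 and 1146 genes, and after Benjamini-Hochberg 0 members, 1 gene higher and 0 lower.

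The replicate numbers are shared between groups, but same-numbered arrays deviated together with r of -0.01, 0.33 and -0.05 for replicates 1, 2 and 3, so they were not treated as pairs. With the replicate block 0 members were called (Ddit4 0.73, limma adjusted p = 0.0992), with 85 genes higher and 18 lower. On each of the 6 arrays all members were clear of background, and the number of arrays limits the precision.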

Other observations

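The list of 35 genes of mitochondrial respiration was described beside the glycolysis genes. Of the 34 tested, 32 were lower and 2 higher with TGF-β1 by their means, with a median log2 difference of -0.14, and 13 were lower without overlap between the groups. In all genes tested 54.2% were lower by their means and 13.5% were lower without overlap. A single gene passed the adjusted threshold. Ppargc1a, encoding the coactivator PGC-1α that promotes mitochondrial biogenesis, fell from 9.66, 10.04 and 9.53 in the controls to 8.01, 8.30 and 8.71 with TGF-β1 (difference -1.41, SE 0.22, limma adjusted p = 0.0295). On TGF-β1 replicates 1, 2 and 3 the median gene of the list lay -0.18, -0.16 and -0.08 from the control mean, so that replicate 3 lay on the same side as the other arrays. Ndufa4l2, a HIF target that resembles a subunit of the respiratory chain and was named after its values were seen, gave 7.31, 6.14 and 6.15 in the controls and 4.72, 2.95 and 6.79 with TGF-β1 (difference -1.71, SE 0.91, limma adjusted p = 0.304).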
